A study of Mus musculus with 43 samples.

Results

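The small RNA of the caput epididymis was compared between the tissue and the luminal fluid of wild-type (WT) mice, in 6 of the 43 libraries of the series. The members were taken by label and not by any measured value: 3 WT caput tissue libraries and 3 WT caput fluid libraries, joined on the 3051 small RNA entries listed in both deposited count tables. The series asks what deletion of the Rnase9-12 cluster, a group of epididymis-specific RNase A family genes, does to small RNAs of the epididymis, its fluid and sperm. All 6 libraries here came from FVB males of 8 to 12 weeks with an intact cluster and without treatment, and in both kinds RNA was treated with T4 polynucleotide kinase before cloning, so that fragments ending in a phosphate could be read. Fluid was collected by letting caput tissue release its content into Whitten's medium and clearing it of sperm, debris and extracellular vesicles in successive spins, and each fluid library held RNA of 3 pooled mice. Pooling of the tissue libraries was not given in the sources used here. Tissue libraries were made with ARM-seq, a ligation-based method known for removing methyl groups from RNA first, and fluid libraries with OTTR-seq, in which a reverse transcriptase joins both adapters without ligation. The library labels are the source for these methods. The library method therefore changed together with the kind of sample, and their parts in any difference given here cannot be told apart.

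The caput is the first segment of the epididymis that sperm enter after leaving the testis, and its epithelium secretes proteins and small RNAs into the lumen. Transfer RNA fragments (tRFs), fragments of ribosomal RNA, microRNAs (miRNAs) and Y RNA are the small RNA kinds usually read in such fluids. miRNAs guide Argonaute proteins to messenger RNAs through a seed at their 5′ end, whereas 5′ and 3′ tRFs are the pieces left when a tRNA is cut, most often in the anticodon loop.

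Because the library methods differed, values were compared as shares: the counts of an RNA in percent of all counts of its RNA class in that library. A share says nothing about how much RNA a sample held, and a class in which 1 RNA gains must lose elsewhere. A fluid share also cannot tell RNA released by the epithelium from RNA of other cells that entered the medium. Total counts ran from 56232715 to 249732714 in the tissue libraries and from 6072858 to 8274251 in the fluid libraries. 4 of the 6 libraries, tissue replicate 3 and the 3 fluid libraries, carried a section label of cauda although their titles name the caput. By their counts each of the 6 was on average most like the other caput libraries of its kind. The mean Pearson r was 0.965 to 0.978 over 2517 RNAs on a log2 scale, against 0.932 to 0.958 with corpus and 0.916 to 0.932 with cauda libraries. For tissue replicate 3 single values crossed: its lowest r with a caput library was 0.973 and its highest with a corpus library 0.975. All 3 caput fluid libraries carry the cauda label and were compared with each other, so this cannot settle a label error they share.

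The miRNAs that differed most in rank, or that share a seed and did not move together, have the following sequences, with the seed (bases 2 to 8) in capitals. They are the mature arms in RefSeq on mouse build GRCm38.p6. The counts are per miRNA gene and do not say which arm was read, and 120 of the miRNA entries tested had a RefSeq hairpin. Genes with the same mature sequence, such as Mir30c-1 with Mir30c-2, can be counted from the same reads.
miR-29a-3p: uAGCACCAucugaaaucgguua
miR-29b-3p: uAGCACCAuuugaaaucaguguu
miR-29c-3p: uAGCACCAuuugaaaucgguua
miR-30a-5p: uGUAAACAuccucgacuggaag
miR-30c-5p: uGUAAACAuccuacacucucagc
miR-27a-3p: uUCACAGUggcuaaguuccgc
miR-27b-3p: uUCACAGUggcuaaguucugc
miR-10a-5p: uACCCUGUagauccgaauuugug
miR-10b-5p: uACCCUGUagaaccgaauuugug
miR-99b-5p: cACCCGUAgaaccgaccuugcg
miR-100-5p: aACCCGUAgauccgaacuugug
miR-125b-5p: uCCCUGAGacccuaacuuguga
miR-451a: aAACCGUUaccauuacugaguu
The 3 miR-29 sequences share the seed AGCACCA, the 2 miR-30 sequences GUAAACA, the 2 miR-27 sequences UCACAGU, the 2 miR-10 sequences ACCCUGU, and miR-99b and miR-100 ACCCGUA. Mir29a lies on the minus strand with its mature arm at chr6:31062673-31062694, near that of Mir29b-1 at chr6:31063025-31063047. The arms of Mir29b-2 at chr1:195037091-195037113 and Mir29c at chr1:195037600-195037621 form the other pair, on the plus strand.

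Of 2126 RNAs tested within their classes, 509 (23.9%) had a higher share in fluid and 671 (31.6%) a higher share in tissue. A call needed an adjusted p under 0.05 in the quasi-likelihood test of edgeR, adjusted by the method of Benjamini and Hochberg, and a log2 difference of at least 1. With 10 counts required in all 6 libraries, 367 of 1225 RNAs were higher in fluid and 347 in tissue. Leaving out tissue replicate 1, 2 or 3 gave 429 of 1606, 430 of 1626 and 435 of 1582 RNAs higher in tissue. In fluid 422, 474 and 514 were then higher. The filter still asked for 3 libraries there, so an RNA read in tissue alone could no longer pass. The larger number for tissue was thus not kept under every setting. An RNA near 0 in 1 kind of library passed the filter of 10 counts in at least 3 libraries through the other kind alone, and such an RNA had to differ. The groups of 3 did not overlap for 586 RNAs (27.6%) that were higher in fluid and 809 RNAs (38.1%) that were higher in tissue, 1395 (65.6%) in all. Over 1 in 2 RNAs (55.5%) was thus called, and the count of any class or family is to be read against these shares. Log2 differences are given as fluid minus tissue, and adjusted p is from this edgeR test. No source says how the 3 libraries of a group relate as animals beyond the pooling given above, so these p-values measure the spread between these samples.

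miRNA shares were less alike between tissue and fluid than within either kind. Of the miRNA entries tested, 60 (41.4%) were higher in fluid and 28 (19.3%) in tissue, beside 23.9% and 31.6% over all RNAs. With trimmed-mean scaling (TMM) in place of class shares the split was 43 against 41, and with median-ratio scaling it was 46 against 37. The median log2 difference of all miRNAs was 0.70, 0.06 and 0.20 in turn. The Spearman correlation of mean shares between tissue and fluid was 0.370 across these entries, while pairs of libraries of 1 kind reached 0.955 to 0.962 in tissue and 0.946 to 0.968 in fluid. Without the low-count filter the correlation between tissue and fluid was 0.65. These correlations are across RNAs, which are not independent replicates. Of the 10 miRNA entries with the highest mean share, 4 were the same in tissue and fluid.

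The miR-29 family, best known for repressing collagen and other matrix genes, rose from a minor to one of the main miRNA families of fluid. Its 4 entries made up 0.127%, 0.183% and 0.204% of miRNA counts in tissue and 9.65%, 6.68% and 7.62% in fluid, with no overlap, and all 4 were called. Mir29a held 0.103%, 0.155% and 0.173% in tissue and 3.89%, 3.12% and 2.86% in fluid (log2 difference 4.51, SE 0.40, adjusted p = 1e-05). By mean share it moved from rank 67 to rank 7. Mir29b-2 held 0.00659%, 0.00704% and 0.00989% in tissue and 2.23%, 1.32% and 1.91% in fluid (log2 difference 7.70, SE 0.50, adjusted p = 2.7e-06). Its tissue shares rested on 3, 1 and 10 counts, and the ratio of the pooled shares was 220-fold with a 95% exact counting interval of 130 to 404. Mir29c and Mir29b-1 gave pooled ratios of 146-fold (84.8 to 276) and 155-fold (98.5 to 258), on 13 and 19 tissue counts in all. These intervals cover counting error only. On tissue counts alone Mir29b-2, Mir29c and Mir29b-1 could not have passed the filter of 10 counts in at least 3 libraries. An RNA near 0 in tissue that passed it through fluid had to differ, so these 3 calls add no separate support. Mir29b-1 and Mir29b-2 have the same mature sequence and had 1035 and 1085 fluid counts in all, which can be the same reads. The family sum may then hold a read more than 1 time. Mir29a, with the highest tissue counts of the 4, had the smallest log2 difference.

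The miR-10 genes, which lie in the Hox clusters, were the top of the tissue list and fell in fluid. Mir10a held 11.0%, 8.71% and 12.7% in tissue and 1.09%, 1.03% and 1.30% in fluid (log2 difference -3.24, SE 0.35, adjusted p = 3.6e-05), going from rank 1 to rank 29. Mir10b held 9.82%, 9.56% and 12.2% in tissue and 1.11%, 1.08% and 1.36% in fluid (log2 difference -3.15, SE 0.34, adjusted p = 3.6e-05), going from rank 2 to rank 27. For both genes every tissue library lay above every fluid library. Their relatives of the same family were split. Mir125b-1, which lies in a cluster with Mir100 and a let-7 gene, held 0.635%, 1.06% and 0.862% in tissue and 5.43%, 5.36% and 5.82% in fluid (log2 difference 2.71, SE 0.34, adjusted p = 8.8e-05) and rose from rank 24 to rank 1. Mir100 went the other way with 0.382%, 0.408% and 0.330% in tissue and 0.0237%, 0.0818% and 0.0390% in fluid (log2 difference -3.02, SE 0.48, adjusted p = 0.00043). Mir99b, with the seed of Mir100, fell by 1.52 on the log2 scale. Over the 8 entries of the miR-10, miR-99, miR-100 and miR-125 family, 2 were higher in fluid, 4 higher in tissue and 2 not called, with a median log2 difference of -0.92 beside 0.70 over all miRNAs.

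miRNA genes that share a seed did not always move together. Mir30a held 1.11%, 0.760% and 0.866% in tissue and 0.368%, 0.260% and 0.240% in fluid (log2 difference -1.65, SE 0.35, adjusted p = 0.0025). Mir30c-1, with the same seed, held 0.211%, 0.246% and 0.391% in tissue and 1.71%, 1.56% and 1.58% in fluid (log2 difference 2.50, SE 0.37, adjusted p = 0.00026). Neither pair of groups overlapped, and the directions were opposite. Mir30b and Mir30c-2 were also higher in fluid, by 3.85 and 2.42 on the log2 scale, whereas Mir30d (-0.37, and called under TMM at -1.01) and Mir30e (0.34, and -0.31 under TMM) were not called. In the miR-27 pair, Mir27b fell from 1.61%, 1.22% and 0.945% to 0.245%, 0.297% and 0.273% (log2 difference -2.21, SE 0.36, adjusted p = 0.00044), and Mir27a, at 0.171%, 0.253% and 0.125% in tissue and 0.134%, 0.193% and 0.123% in fluid, was not called. Mir23b, which is transcribed together with Mir27b, rose by 1.96 (adjusted p = 0.0031), and Mir23a, from the cluster of Mir27a, rose by 3.24 (adjusted p = 0.00029). Of the 9 entries of the miR-26, miR-27, miR-23 and miR-24 list, 7 were higher in fluid and 1 in tissue, with a median log2 difference of 1.96. These lists share genomic clusters, and their members are not independent of each other.

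Further abundant miRNAs separated or stayed close. Mir143, known from smooth muscle, held 8.81%, 11.0% and 8.01% in tissue and 2.22%, 1.61% and 1.85% in fluid (log2 difference -2.29, SE 0.34, adjusted p = 0.00026). Mir148a, at 11.9%, 6.25% and 7.17% in tissue and 4.03%, 4.85% and 4.68% in fluid, did not pass the fold limit although the groups did not overlap (log2 difference -0.90, SE 0.35, adjusted p = 0.047), and it was called tissue-higher under TMM (-1.55) and median-ratio scaling (-1.41). Mir21a, a miRNA expressed in most cells, held 2.89%, 1.62% and 2.02% in tissue and 5.74%, 5.41% and 4.08% in fluid (log2 difference 1.22, SE 0.35, adjusted p = 0.012), a call that was lost under TMM (0.58) and median-ratio scaling (0.72). The let-7 family, a large group of miRNAs with 1 seed that rises with differentiation, took 13.6%, 15.1% and 20.05% of miRNA counts in tissue and 17.0%, 19.7% and 19.99% in fluid, and these ranges overlapped. Of its 12 entries 3 were higher in fluid (Mirlet7b by 1.22, Mirlet7d by 1.41 and Mir98 by 1.5) and none in tissue, with a median log2 difference of 0.31. All 3 calls were lost under TMM (0.61, 0.77 and 0.86), and those of Mirlet7b (0.74) and Mirlet7d (0.90) also under median-ratio scaling. In the epithelial family of miR-200 and miR-141 1 of 5 entries, Mir141, was called (log2 difference 1.47, SE 0.36, adjusted p = 0.0055), and the median was -0.16. That call was lost under TMM (0.82) and median-ratio scaling (0.96), under which Mir200c was called tissue-higher instead (-1.27 and -1.13). Among the miR-17/92 group and its paralogs, known from proliferating cells, 4 of 8 were higher in fluid and 1 in tissue: Mir19b-2 rose by 4.63 and Mir92-1 fell by 1.71.

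Marker miRNAs of other cell types differed as well. Mir451a, the miRNA of red blood cells, had 1, 2 and 2 counts in the tissue libraries and 175, 127 and 157 counts in the fluid libraries. It passed the filter through fluid alone. Its share was 0.00220%, 0.0141% and 0.00198% in tissue and 0.692%, 0.944% and 0.875% in fluid, a pooled ratio of 260-fold (95% exact counting interval 111 to 806). The 3 white blood cell markers tested (Mir142, Mir223, Mir150) were all higher in fluid, and the 4 markers listed in both tables had a summed share of 0.0242%, 0.0211% and 0.0336% in tissue and 0.352%, 0.446% and 0.318% in fluid. On tissue counts alone none of the 3 tested could have passed the filter. All 4 fibroblast markers (Mir199a-1, Mir199a-2, Mir199b, Mir214) were higher in fluid, with summed shares of 1.73%, 2.24% and 1.63% in tissue and 6.88%, 6.98% and 6.77% in fluid. The 1 endothelial marker tested, Mir126a, was also called (log2 difference 1.04, SE 0.37, adjusted p = 0.036), but not under TMM (0.39) or median-ratio scaling (0.53).

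Of the 4 smooth muscle markers tested 3 were higher in tissue, and the 7 joined took 9.93%, 12.3% and 10.2% in tissue and 4.33%, 3.38% and 4.19% in fluid. Most of this tissue sum was Mir143. The 1 marker not called was Mir145a, which lay in the other direction from Mir143. The 6 epithelial markers, which mark the labelled tissue, were present in both kinds of library at overlapping sums of 5.64%, 4.76% and 6.59% in tissue and 5.78%, 4.74% and 5.01% in fluid, and 1 of them (Mir141) was called, not so under TMM or median-ratio scaling. Testis-type miRNAs were close to absent: the 14 of 19 listed in both tables had 61, 8 and 98 counts in all in the tissue libraries and 23, 13 and 32 in the fluid libraries, none could be tested, and Mir878 was at 0 in all 6. The part of blood and stromal cells in the miRNA differences was not tested.

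**Figure D1:**
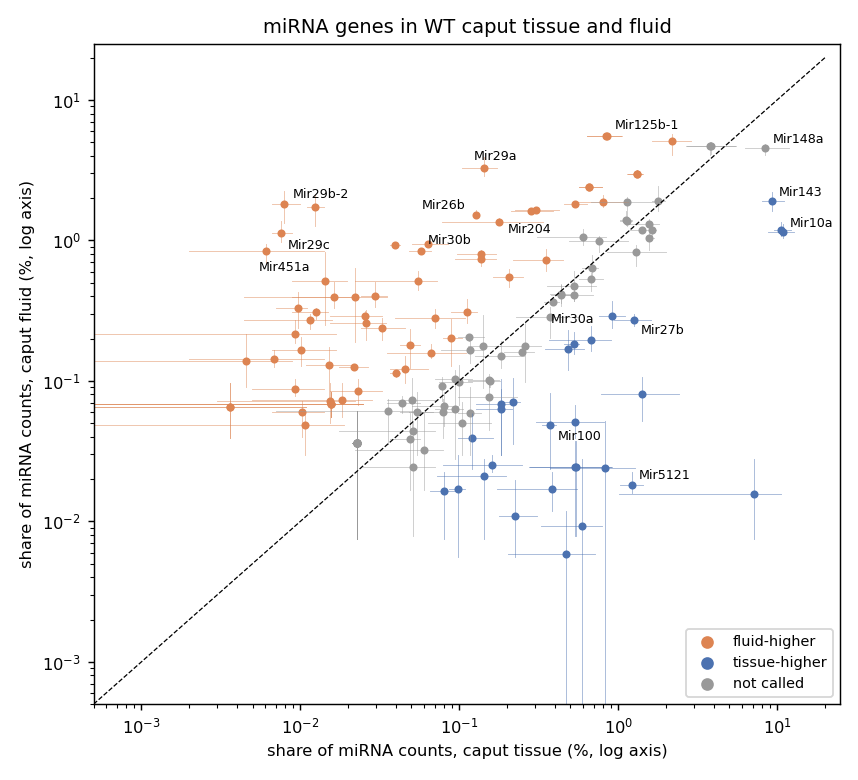
Mean share of each miRNA entry in WT caput tissue (x axis) against WT caput fluid (y axis), in percent of miRNA counts on log axes, coloured by the edgeR call for the entries tested. The miR-29 entries and Mir451a stand far above the diagonal, and Mir10a and Mir10b stand below it at the high end of tissue.

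Among tRFs, the 5′ kind took a larger share in fluid. 5′ tRFs were 10.8%, 10.1% and 15.6% of all tRF counts in tissue and 43.3%, 40.8% and 39.8% in fluid, with no overlap (log2 ratio of means 1.76). 3′ tRFs held 52.5%, 45.3% and 56.0% in tissue and 53.8%, 55.8% and 57.9% in fluid, and the groups overlapped. The remaining tRFs, those not ending at either end of the tRNA, held 36.7%, 44.6% and 28.5% in tissue and 2.91%, 3.45% and 2.298% in fluid, again without overlap. For each of these sums the exact two-sided permutation test of 3 against 3 libraries cannot give a p below 0.1, which is what every sum without overlap has, and the adjusted p over the 63 sums is then 0.129. 49 of the 63 sums did not overlap between tissue and fluid.

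Within the 5′ tRFs, the glycine, arginine and glutamate anticodons Gly-CCC, Arg-ACG, Glu-CTC and Glu-TTC had higher sums in fluid. Gly-CCC held 0.158%, 0.228% and 0.457% of 5′ tRF counts in tissue and 8.96%, 8.18% and 7.92% in fluid. Arg-ACG held 0.226%, 0.352% and 0.150% in tissue and 8.66%, 11.1% and 5.61% in fluid. Glu-CTC held 2.54%, 2.31% and 6.49% in tissue and 11.0%, 7.89% and 10.6% in fluid. None of these 3 overlapped, and the same was true of Glu-TTC, at 1.24%, 1.21% and 1.77% in tissue and 2.83%, 1.83% and 2.72% in fluid. Gly-GCC, the largest sum in fluid, held 16.9%, 13.4% and 37.5% in tissue and 33.0%, 32.4% and 36.2% in fluid. Here tissue replicate 3 lay above all fluid libraries and the groups overlapped. Val-AAC held 17.2%, 18.01% and 7.26% in tissue and 2.25%, 2.16% and 2.59% in fluid. Val-CAC held 14.9%, 15.3% and 6.38% in tissue and 1.84%, 1.88% and 2.16% in fluid. Both valine sums were lower in every fluid library than in any tissue library. Of 51 anticodons, 13 had 5′ sums that were higher in fluid without overlap and 28 higher in tissue.

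Single 5′ entries spread over a wider range than the anticodon sums. Gly-CCC-1 held 0.142%, 0.210% and 0.431% in tissue and 8.94%, 8.16% and 7.91% in fluid (log2 difference 4.99, SE 0.38, adjusted p = 5e-06), and Arg-ACG-1 held 0.0746%, 0.116% and 0.0485% in tissue and 2.89%, 3.69% and 1.87% in fluid (log2 difference 5.15, SE 0.38, adjusted p = 4.5e-06). Both were well above their tissue range in all 3 fluid libraries. Arg-CCT-1 and Gly-TCC-1 rose by 4.81 and 3.50 on the log2 scale, while Gly-GCC-2 (log2 difference 0.59, SE 0.32, adjusted p = 0.13) was not called, although it was called fluid-higher under TMM (2.1) and median-ratio scaling (2.22). Cys-GCA-19 fell by 7.96, to 9, 7 and 13 counts in the fluid libraries. Phe-GAA-2, which passed the filter through tissue alone, had 1, 4 and 2 counts there, and its pooled share was 2351-fold higher in tissue (95% exact counting interval 1140 to 5850). Of the 5′ entries, 190 were tested, of which 39 (20.5%) were higher in fluid and 112 (58.9%) in tissue, with a median log2 difference of -1.61. The split was 74 against 72 under TMM and 74 against 68 under median-ratio scaling, where the median moved to -0.02 and 0.10, so the direction of a typical 5′ entry depends on the scaling.

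The 3′ tRFs had another set of leading anticodons. Leu-CAA held 5.73%, 5.72% and 5.35% of 3′ tRF counts in tissue and 18.5%, 19.2% and 17.9% in fluid. His-GTG held 4.11%, 1.53% and 4.91% in tissue and 17.1%, 13.7% and 14.8% in fluid. Leu-CAG held 1.99%, 2.01% and 2.24% in tissue and 6.18%, 6.38% and 5.95% in fluid. All 3 were without overlap, and the same held for the smaller sum of Gly-GCC, at 0.259%, 0.347% and 0.544% in tissue and 1.57%, 1.76% and 1.70% in fluid. Glutamine and tryptophan fragments were lower in fluid. Gln-TTG held 11.4%, 10.7% and 7.74% in tissue and 1.59%, 1.78% and 1.41% in fluid. Gln-CTG held 16.9%, 17.5% and 11.0% in tissue and 5.63%, 6.22% and 4.78% in fluid. Trp-CCA held 13.3%, 11.5% and 9.56% in tissue and 2.39%, 1.86% and 2.15% in fluid. In these 3 the lowest tissue library lay above the highest fluid library.

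Over 51 anticodons, 21 had 3′ sums that were higher in fluid without overlap and 15 higher in tissue. For 5 anticodons the sums of both kinds were higher in fluid, and for 9 both were higher in tissue. In 4 the 5′ sum was higher in fluid and the 3′ sum in tissue, and in 10 it was the reverse. Among single 3′ entries Leu-CAA-2 held 1.44%, 1.42% and 1.33% in tissue and 4.65%, 4.83% and 4.51% in fluid (log2 difference 1.74, SE 0.11, adjusted p = 2.7e-06), and Gln-TTG-2 held 2.84%, 2.67% and 1.89% in tissue and 0.0237%, 0.0358% and 0.0232% in fluid (log2 difference -6.48, SE 0.37, adjusted p = 2.3e-06). His-GTG-3 rose by 2.79 and Gly-GCC-4 by 3.96. Of the 3′ entries, 188 were tested, of which 51 (27.1%) were higher in fluid and 88 (46.8%) in tissue, and under TMM 75 and 67.

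Fragments with neither end of the tRNA had another makeup again. Cys-GCA held 30.6%, 31.2% and 16.5% of these counts in tissue and 4.35%, 2.3% and 3.12% in fluid. Gln-CTG held 8.997%, 11.0% and 12.4% in tissue and 20.6%, 39.7% and 25.5% in fluid. Arg-TCG held 1.89%, 2.16% and 1.49% in tissue and 7.74%, 5.29% and 7.67% in fluid. None of the 3 overlapped. The valine, Gln-TTG and Gly-CCC sums of this kind were higher in fluid, opposite to the valine 5′ sums, and those of Gly-GCC and Glu-TTC overlapped. Of 207 single entries of this kind tested, 54 (26.1%) were higher in fluid and 96 (46.4%) in tissue, and under TMM 74 and 81.

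**Figure D2:**
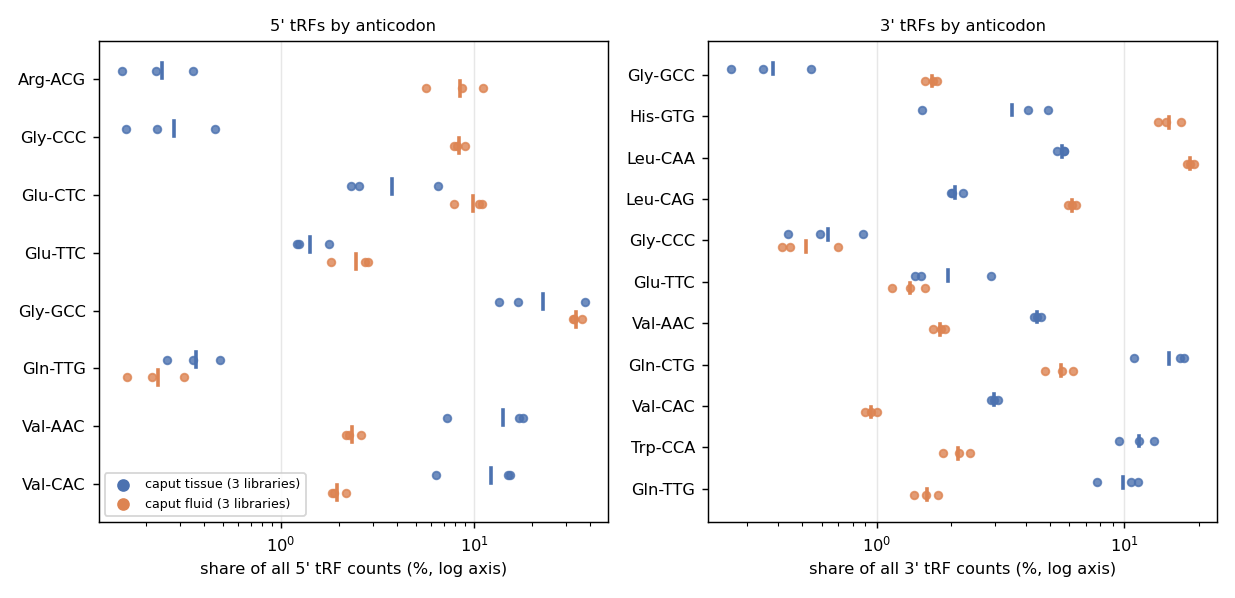
Shares of the 5′ and 3′ tRF sums by anticodon, in percent of the counts of that tRF kind on a log axis, with 1 point for each of the 3 WT caput tissue and 3 WT caput fluid libraries. Gly-CCC and Arg-ACG 5′ tRFs and Leu-CAA and His-GTG 3′ tRFs sit to the right in fluid, while the points of Gly-GCC 5′ tRFs overlap.

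Some sets of related tRNA entries were almost equal in tissue and far apart in fluid. They were picked after their values were seen. The 4 valine 5′ entries Val-AAC-1, Val-AAC-5, Val-CAC-1 and Val-CAC-2 held 6.06% to 6.14%, 6.03% to 6.10% and 2.46% to 2.73% of 5′ tRF counts in the 3 tissue libraries, at most 1.11-fold apart in any of them. In the fluid libraries they ran from 0.0385% to 1.70%, 0.0245% to 1.75% and 0.0236% to 2.03%, which is 44.0-fold, 71.3-fold and 86.2-fold apart. Val-CAC-1 fell by 7.39 (adjusted p = 3.8e-06) and Val-AAC-5 by 3.39 (adjusted p = 3.3e-05). Val-CAC-2 and Val-AAC-1 had log2 differences of -1.45 and -1.47, which turned to 0.27 and 0.26 under TMM. For 7 glutamine 3′ entries the tissue values lay within 1.07-fold and the fluid values were 133-fold, 49.5-fold and 98.7-fold apart. The glycine 5′ entries Gly-GCC-2, Gly-GCC-3 and Gly-GCC-4 did not follow this: they lay within 1.022-fold in every tissue library and were equal or nearly so in every fluid library. All best matches of a read were kept in mapping, so equal counts of entries in a library can be the same reads, and a sum over an anticodon may hold a read more than 1 time. The part of this counting, and of the library method, in the spread of these entries was not tested.

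**Figure D3:**
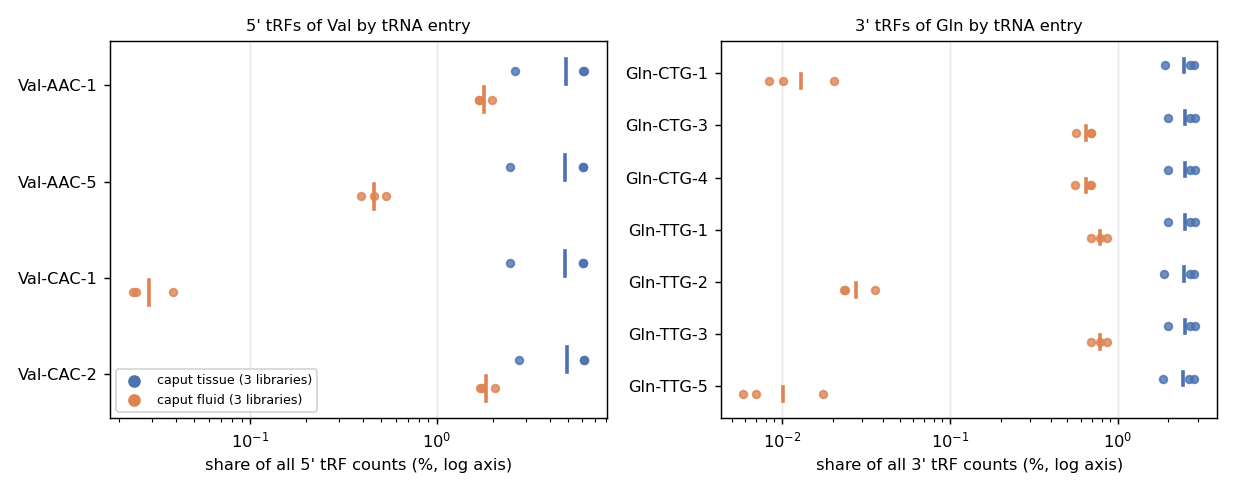
Shares of single entries of the valine 5′ tRFs and the glutamine 3′ tRFs, in percent of the counts of that tRF kind on a log axis, with 1 point for each library. The tissue points of each set line up within 1.11-fold, and the fluid points spread over up to 133-fold.

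Among the rRNA sequences, 28S fragments were higher and 5S and 5.8S fragments lower in fluid. The 28S sum was 24.2%, 26.5% and 35.6% of rRNA sequence counts in tissue and 94.8%, 94.5% and 96.2% in fluid. 5S rRNA held 53.7%, 47.7% and 37.2% in tissue and 1.14%, 1.01% and 0.751% in fluid (log2 difference -5.58, SE 0.22, adjusted p = 3.5e-07), and 5.8S rRNA held 14.7%, 17.9% and 18.6% in tissue and 0.0386%, 0.0472% and 0.0300% in fluid (log2 difference -8.79, SE 0.27, adjusted p = 5.6e-08). None of these overlapped. 18S rRNA held 6.84%, 7.21% and 7.88% in tissue and 3.93%, 4.34% and 2.96% in fluid, which were also apart, but its log2 difference of -0.96 did not reach the fold limit. The mitochondrial sum, at 0.498%, 0.604% and 0.641% in tissue and 0.120%, 0.140% and 0.111% in fluid, was lower in all 3 fluid libraries. The class has 7 entries and is dominated by 28S, so the shares of the others fall as that of 28S rises.

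Repeat-annotated rRNA copies moved in both directions. Among 28S copies, rmsk_28S_756 rose by 11.43 on the log2 scale and rmsk_28S_1000 by 8.74, whereas rmsk_28S_780 and rmsk_28S_92 fell by 1.60 and 2.51. In that class of 104 copies tested, 30 (28.8%) were higher in fluid and 20 (19.2%) in tissue, with a median log2 difference of -0.01. Of the 18S copies 6 were higher in fluid and 12 in tissue, a split that became 8 against 5 under TMM. Of the 5S copies tested 43 (21.4%) were higher in fluid and 54 (26.9%) in tissue. That split was 53 against 51 under TMM and 52 against 52 under median-ratio scaling.

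Y RNAs, components of Ro particles that take part in RNA quality control, were the main gain among the other noncoding RNAs. Their GENCODE M21 sequences (GRCm38), shown because both rose from minor to leading entries, are as follows, with Rny1 at chr6:47788069-47788180 on the minus strand and Rny3 at chr6:47781624-47781725 on the plus strand.
Rny1: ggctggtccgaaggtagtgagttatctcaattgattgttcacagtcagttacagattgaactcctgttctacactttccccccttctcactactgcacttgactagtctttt
Rny3: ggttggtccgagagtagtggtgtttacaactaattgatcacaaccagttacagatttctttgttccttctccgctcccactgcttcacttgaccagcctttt
Rny1 held 1.46%, 1.53% and 1.48% of misc_RNA counts in tissue and 24.5%, 13.8% and 18.4% in fluid (log2 difference 3.67, SE 0.23, adjusted p = 2.7e-06). Rny3 held 0.595%, 0.660% and 0.588% in tissue and 14.7%, 10.9% and 13.3% in fluid (log2 difference 4.40, SE 0.21, adjusted p = 1.1e-06). Together they were 2.06%, 2.19% and 2.07% in tissue and 39.1%, 24.7% and 31.7% in fluid. The fluid libraries varied more among themselves than the tissue libraries, yet each lay above every tissue library.

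The other named RNAs of this type went down or did not pass the test. Rmrp, the RNA of RNase MRP, held 0.664%, 0.943% and 0.564% in tissue and 0.0668%, 0.0711% and 0.0457% in fluid (log2 difference -3.56, SE 0.39, adjusted p = 3.8e-05). Rpph1, the RNA of RNase P, held 0.274%, 0.294% and 0.283% in tissue and 0.0691%, 0.0698% and 0.0457% in fluid (log2 difference -2.21, SE 0.34, adjusted p = 0.00034). Rn7sk, which holds back transcription elongation, held 6.09%, 8.55% and 4.25% in tissue and 1.23%, 1.97% and 1.08% in fluid (log2 difference -2.14, SE 0.36, adjusted p = 0.00056). None of these overlapped. Rprl3, Rprl2 and Rn7s6 fell by 3.81, 1.98 and 2.71, and the vault RNA Vaultrc5, at -0.89, was not called except under median-ratio scaling (-1.07). Of the 11 RNAs listed, 2 were higher in fluid and 6 in tissue, with a median log2 difference of -1.98 beside 0.42 over all misc_RNA entries.

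Rn7s1, the 7SL RNA of the signal recognition particle, had overlapping shares in tissue and fluid. It held 23.3%, 20.2% and 22.6% in tissue and 19.5%, 24.4% and 23.6% in fluid, with a log2 difference of 0.03 (0.19 under TMM and -0.33 under median-ratio scaling). The 7SL sum of Rn7s1, Rn7s2 and Rn7s6 was 61.9%, 51.5% and 59.4% in tissue and 41.2%, 50.9% and 49.2% in fluid. These sums were lower in fluid without overlap, so Rn7s1 does not stand for all 7SL entries.

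**Figure D4:**
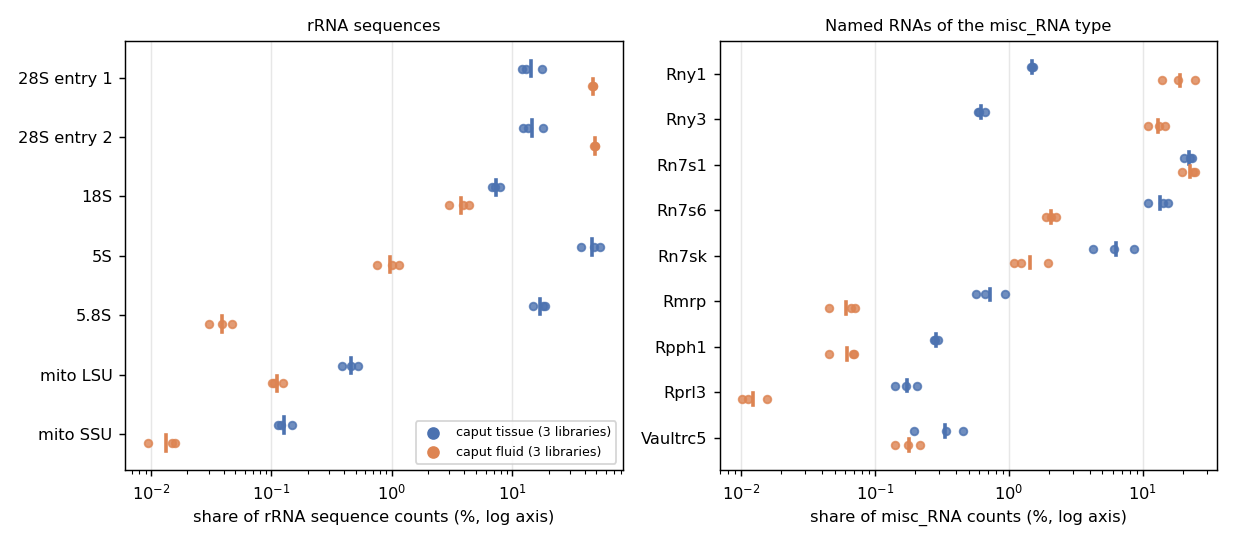
Shares of the 7 rRNA sequence entries and of 9 named misc_RNA entries, each in percent of the counts of its class on a log axis, with 1 point for each of the 3 WT caput tissue and 3 WT caput fluid libraries. 5S and 5.8S rRNA sit far to the left in fluid, Rny1 and Rny3 to the right, and the points of Rn7s1 overlap.

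Spliceosomal and other U RNAs were split by entry. Rnu5g, a U5 RNA, held 0.786%, 0.708% and 1.11% of snRNA counts in tissue and 0.0586%, 0.0360% and 0.0342% in fluid (log2 difference -4.34, SE 0.35, adjusted p = 7.5e-06). Rnu12, the U12 RNA of the minor spliceosome, held 0.139%, 0.148% and 0.103% in tissue and 0.364%, 0.226% and 0.287% in fluid (log2 difference 1.17, SE 0.32, adjusted p = 0.0094), a call that was lost under TMM (0.43) and median-ratio scaling (0.37). Rnu7, which acts in histone messenger RNA processing, rose by 1.64 and Rnu1b6, a U1 copy, by 1.62. Rnu2-10 (U2), the most counted of the named ones in tissue at 7.44%, 6.89% and 4.46% and at 3.20%, 3.71% and 2.95% in fluid, was not called, but was called tissue-higher under TMM (-1.71) and median-ratio scaling (-1.74). Among 20 entries of a list of named U RNAs 3 were higher in fluid and 2 in tissue, with a median log2 difference of 0.13. The list is mixed: beside spliceosomal RNAs it holds Rnu7 and U3 RNAs, of which Rnu3b1 was counted as a snoRNA. Over all snRNA entries the median was 0.30. Over the class 76 were higher in fluid and 64 in tissue, and the split turned to 65 against 91 under TMM. Among single copies, Gm23737 rose by 7.55 and Gm25313 fell by 5.09.

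Small nucleolar RNAs, which guide rRNA modification, were a thinly read class in fluid, with 4835 to 5807 counts a library. Rnu3b1, a U3 RNA, held 5.89%, 7.53% and 5.14% of snoRNA counts in tissue and 6.87%, 6.83% and 6.62% in fluid and was not called (log2 difference 0.13, -0.30 under TMM). Gm22865 and Gm26083 rose by 4.91 and 4.78. Snord21, which passed the filter through tissue alone, had 3, 2 and 3 counts in the fluid libraries, and its pooled share was 22.99-fold higher in tissue (95% exact counting interval 11.7 to 53.3). Of 197 entries of the class tested, 34 (17.3%) were higher in fluid and 47 (23.9%) in tissue, beside 23.9% and 31.6% over all RNAs. Under TMM the split became 27 against 64.

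Entries annotated as piRNA loci can share reads with other genes. pi-Ctdsp2.1, named for Ctdsp2, the gene that holds Mir26a-2, had 645, 239 and 1252 counts in tissue and 771, 467 and 556 in fluid, where Mir26a-2 had 626, 204 and 1157 and 731, 423 and 520. The 2 entries had nearly equal counts in every library, and the piRNA entry was not called (log2 difference 0.23). pi-Foxo3.3 and pi-Ccdc117.1 rose by 3.27 and 3.86, and 1-qE2.3-2.1 fell by 1.06. Of 232 piRNA entries 28 were higher in fluid and 18 in tissue, a split of 17 against 25 under TMM.

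Reads that covered whole tRNAs were rare in both, and their order differed. Whole Gly-GCC-4 had 2, 1 and 12 tissue counts, and its pooled share was 122-fold higher in fluid (95% exact counting interval 72.6 to 222). It could not have passed the filter on those tissue counts alone. Whole Val-CAC-2 rose by 3.94, while His-GTG-2 fell by 3.46. Of 34 entries tested, 9 (26.5%) were higher in fluid and 18 (52.9%) in tissue. The fluid totals behind them were 1225 to 2407 counts. The Spearman correlation of tissue with fluid mean shares was 0.202 for whole tRNAs (0.53 without the low-count filter) and 0.330 for tRNA loci, against 0.905 for 5S copies, 0.750 for snRNAs and 0.708 for misc_RNA. Between these lay 5′ tRFs at 0.504, other tRFs at 0.548 and 3′ tRFs at 0.669. The 5′ tRFs shared 4 of their 10 leading entries between tissue and fluid, the 3′ tRFs 2 and the other tRFs 8.

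**Figure D5:**
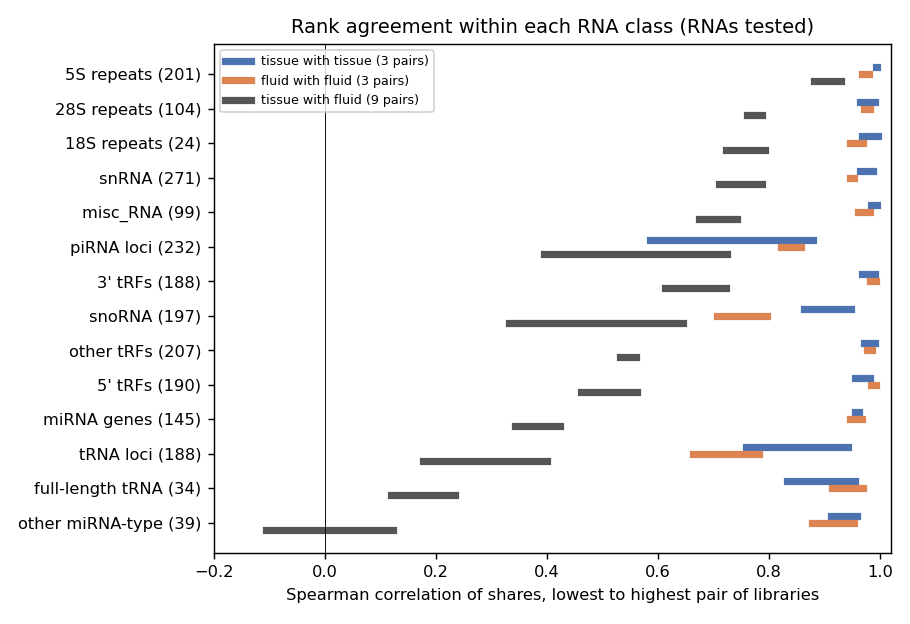
Spearman correlation of shares between pairs of libraries for each RNA class, from the lowest to the highest pair, within tissue (3 pairs), within fluid (3 pairs) and between tissue and fluid (9 pairs). For miRNAs the pairs between tissue and fluid run from 0.342 to 0.424, below every pair of 1 kind.

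The same comparison was made in FVB mice homozygous for a deletion of the Rnase9-12 cluster, in 3 KO caput tissue and 3 KO caput fluid libraries that share no sample with the WT ones but share the difference in library method. The KO contrast came from a joint fit of the 12 caput libraries, WT included, over the 2126 RNAs that passed the WT filter. The KO calls therefore also use the spread of the WT libraries and do not rest on KO samples alone. In KO, 576 RNAs (27.1%) were higher in fluid and 628 (29.5%) in tissue. Of the 509 RNAs that were higher in WT fluid, 506 had the same sign in KO and 445 were called there. Of the 671 that were higher in WT tissue, 653 had the same sign and 556 were called. The share called again differed by class. For miRNAs it was 59 of 60 fluid-higher and 28 of 28 tissue-higher entries, for piRNA entries 7 of 28 and 17 of 18, for snoRNAs 20 of 34 and 39 of 47, and for misc_RNA 36 of 36 and 18 of 29. A test of the difference between the genotypes' contrasts found 0 of 2126 RNAs (edgeR, smallest adjusted p = 0.320), and 196 had an unadjusted p under 0.05. With all 35 libraries in the fit it again found 0 (smallest adjusted p = 0.386), and 120 had an unadjusted p under 0.05. Finding none with 3 libraries in a group does not show that the contrasts are equal.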

How the data were processed

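Small RNA counts were taken from 2 tables that the authors deposited, 1 for epididymis tissue and 1 for epididymal fluid. Per the study's methods, reads were trimmed with cutadapt, aligned to mm10 with bowtie2 and counted with a modified version of tRAX, which keeps all best mappings of a read and uses, for tRNA counts, reads specific to an acceptor type and anticodon. How reads shared by several entries were divided was not given in the sources used here. The processing notes also name UMI-tools. Versions were not given in the sources used here. The 2 tables hold raw counts, so the 6 libraries could enter 1 fit, and 0 columns belonged to another series.

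The 3051 joined entries held at least 99.7% of the counts of each library. They were sorted into RNA classes, and 2819 lay in the classes compared. Antisense tRNA, mitochondrial tRNA and unclassified entries and the sperm table were not used here. Shares are counts over the class total of the library. Entries with at least 10 counts in at least 3 of the 6 libraries were tested (2126, of which 145 shared all counts with another). The test was edgeR 4.0.16 (R 4.3.3), quasi-likelihood, with class totals as library sizes, adjusted over all entries, and a call needed an adjusted p under 0.05 and a log2 difference of 1. Alternatives were DESeq2 1.42.0, TMM or median-ratio scaling within classes, other filters, broad classes, thinned counts, replicates left out and a replicate block. In simulated counts with this design 77.2% of 193 entries changed by 2 on the log2 scale were called, and 6 of 1859 unchanged ones. The simulation drew from the fitted spread of these data and kept the class totals, so it does not test scaling or library method. Sums over anticodons or families were compared by an exact permutation test. By the rule for named RNAs these were, in each class, the 3 with the highest mean share in tissue and in fluid, the 2 called without overlap with the smallest p in each direction, and examples from the lists by mean share; further list members were chosen after their values were seen. A withheld sequence and the result that rests on it are not reported here. Members and lists were chosen with earlier results of these data known.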

Additional observations from a re-analysis of the deposited data

How the results depend on the processing

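The numbers of RNAs called did not depend much on the test or scaling. Against 509 higher in fluid and 671 in tissue, the calls were 525 and 681 with DESeq2, 560 and 640 under TMM and 561 and 661 under median-ratio scaling. A filter of 10 counts in all 6 libraries, which tests 1225 RNAs, gave 367 and 347. Leaving out 1 library at a time gave 422 to 514 higher in fluid and 429 to 650 in tissue, the lowest without tissue replicate 1 (422 and 429). The tissue count was 430 without tissue replicate 2 and 435 without tissue replicate 3. Without tissue replicate 1, 2 or 3 only 1606, 1626 and 1582 RNAs were tested. An RNA read in tissue alone then failed the filter of 3 libraries. With a fluid library left out, 2085 to 2096 RNAs were tested. Same-numbered libraries did not deviate together (correlations of -0.02, 0.07 and 0.04), and a replicate block gave 495 and 676.

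A change of direction was counted here only for an RNA called in the main fit or in the other setting. RNAs with at most 3 counts in all in either kind of library were left out of this count. Of 325 RNAs chosen by the rule for named RNAs, 41 changed direction in this sense under some setting. 31 did so only with broad classes, in which shares are taken over all tRNA or all rRNA entries, 10 under TMM or median-ratio scaling, and 0 when a library was left out. Under TMM, median-ratio scaling and broad classes the log2 difference was 0.26, 0.34 and 0.39 for the 5′ tRF of Val-AAC-1 and 0.27, 0.35 and 0.40 for that of Val-CAC-2. With broad classes it was -2.28 for the other tRF of Gln-CTG-2, 2.80 for 18S rRNA, 0.51 for SSU_mito and rmsk_18S_0, 1.72 for LSU_mito and 0.52 for rmsk_28S_780.

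A sum turned direction in a few cases, all of sums whose groups overlapped apart from miR-30 and 7SL. With only the most counted entry in place of the sum, the log2 ratio was 0.53 for Gly-CCC 3′ tRFs, 0.087 for epithelial markers and for miR-200 with miR-141, -0.51 for germ cell markers and for miR-34 with miR-449, -1.66 for miR-30 and 0.030 for 7SL. When 1 library was left out, it ran from -0.56 to 0.0094 for Gly-CCC 3′ tRFs, from -0.30 to 0.17 for Glu-TTC and -0.34 to 0.068 for Gly-GCC among other tRFs, from -0.0299 to 0.67 for germ cell markers, and from -0.24 to 0.22 for the list of miR-21, miR-22, miR-148, miR-375 and miR-451.

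Without the filter on low counts the rank correlation between tissue and fluid was 0.65 for miRNAs, 0.13 for miRNA-type entries without a miRNA name, 0.83 for misc_RNA, 0.88 for piRNA entries, 0.85 for 28S copies, 0.75, 0.63 and 0.59 for 3′, 5′ and other tRFs, 0.53 for whole tRNAs and 0.45 for tRNA loci. It was 0.72 to 0.77 for 18S copies and 0.77 to 0.78 for 28S copies when 1 library was left out.

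Depth limits the rarest classes: the fluid libraries held 4835 to 5807 snoRNA counts and 1225 to 2407 whole tRNA counts. Library method and kind of sample cannot be told apart under any setting. Taking all miRNA-type entries as 1 class, an alternative added after the data were seen, gave 485 and 673 calls.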

Other observations

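Entries of the miRNA type that carry no miRNA name were kept as a class of their own. Their rank correlation between tissue and fluid was -0.05, and of 39 tested 11 were higher in fluid and 18 in tissue. Antisense tRNA reads, which entered no comparison, had 21, 28 and 50 counts in the tissue libraries and 1114, 718 and 623 in the fluid libraries.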
